A study of Mus musculus with 23 samples.

Results

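Nr1d1, Nr1d2, Rora, Bhlhe40 and Bhlhe41 encode REV-ERBα, REV-ERBβ, RORα, DEC1 and DEC2, the nuclear receptors and helix-loop-helix repressors that tie the core of the circadian clock to its accessory loops. They were taken by gene symbol from the deposited expression table and make up 5 of its 14500 genes. All 5 passed the filter on low values, which kept 12820 genes. The table covers 23 RNA-seq libraries of whole tibialis anterior, the fast muscle along the shin, from female C57BL/6 mice fed ad libitum. Levels are in FPKM (fragments per kilobase of exon, scaled by a depth value of each library), a unit corrected for gene length.

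The 8 groups combine genotype, treatment and zeitgeber time (ZT), where ZT12 is lights off and ZT0 lights on. RE-RE mice carried Bmal1(stopFL/stopFL), in which Bmal1 (Arntl) is silenced by a stop cassette and restored where Cre acts. They also had 2 Cre transgenes, Hsa-Cre(-/tg), which is active in skeletal muscle, and Syt10-Cre(-/tg), which is active in neurons including those of the suprachiasmatic nucleus. The other cells of whole muscle keep the cassette. Muscles given 6-OHDA, a toxin of sympathetic nerve endings, had repeated injections of 50 mg/kg over 2 weeks and were collected after a recovery of 2 weeks, whereas sham muscles had no injection. The injection, its ascorbic acid vehicle, the anaesthesia and the toxin therefore cannot be told apart. RE-RE 6-OHDA muscle had 2 libraries at ZT12 (15 to 18 weeks of age) and 2 at ZT0 (12 to 16 weeks). RE-RE sham muscle had 2 libraries at ZT12 (11 weeks) and 2 at ZT0 (10 to 11 weeks). Wild-type 6-OHDA muscle had 4 libraries at ZT12 (12 to 15 weeks) and 4 at ZT0 (15 to 16 weeks). Wild-type sham muscle had 3 libraries at ZT12 (12 to 18 weeks) and 4 at ZT0 (13 to 18 weeks).

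In the mammalian clock, BMAL1 and its partners CLOCK or NPAS2 bind E-box elements and switch on the genes of their own repressors. REV-ERBα and REV-ERBβ recruit a corepressor complex to ROR response elements (ROREs), where RORα activates, and the balance between both sets the transcription of Arntl and other RORE-driven genes. DEC1 and DEC2 bind E-boxes and repress BMAL1-driven transcription. In muscle, REV-ERBα is known for its part in mitochondrial content and oxidative capacity, RORα for lipid metabolism, and Bhlhe40 is also a gene induced by low oxygen.

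Nr1d1 (ENSMUSG00000020889) lies on GRCm38 chromosome 11 from 98767932 to 98775333 on the minus strand, and Nr1d2 (ENSMUSG00000021775) on chromosome 14 from 18204054 to 18239127, also on the minus strand. Rora (ENSMUSG00000032238) spans chromosome 9 from 68653786 to 69388246 on the plus strand. Bhlhe40 (ENSMUSG00000030103, chromosome 6, 108660629 to 108666925, plus strand) and its paralog Bhlhe41 (ENSMUSG00000030256, chromosome 6, 145858243 to 145865558, minus strand) share a chromosome. RefSeq promoter windows (GRCm38.p6), each reaching 250 bases before to 50 bases after the gene start, were matched for 4 genes, Bhlhe40 being without a match. They were searched on both strands for the E-box CACGTG, its variant CACGTT, the core AGGTCA of nuclear receptor elements, and the D-boxes TTATGTAA and TTACGTAA. These motifs are in 7.15%, 4.68%, 16.3%, 0.938% and 0.119% of all 32851 windows. Shown are the 3 windows with a match, because their genes include the member that rose between ZT0 and ZT12 (Bhlhe41) and both REV-ERB genes, whose ratio is given beside the times. Capitals mark the match.
Bhlhe41, chr6:145865371-145865670, minus strand: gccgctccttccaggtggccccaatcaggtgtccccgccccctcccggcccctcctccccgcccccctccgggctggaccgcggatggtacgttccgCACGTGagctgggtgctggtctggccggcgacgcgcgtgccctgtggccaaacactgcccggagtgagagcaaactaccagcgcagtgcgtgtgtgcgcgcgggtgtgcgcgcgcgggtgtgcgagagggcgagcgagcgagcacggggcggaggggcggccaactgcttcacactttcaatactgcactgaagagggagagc
Nr1d1, chr11:98775328-98775627, minus strand: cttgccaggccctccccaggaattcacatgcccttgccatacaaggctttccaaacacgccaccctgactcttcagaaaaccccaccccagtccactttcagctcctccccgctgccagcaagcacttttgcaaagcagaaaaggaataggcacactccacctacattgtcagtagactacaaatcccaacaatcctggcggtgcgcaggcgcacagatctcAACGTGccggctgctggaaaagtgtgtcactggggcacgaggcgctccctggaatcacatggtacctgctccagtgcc
Nr1d2, chr14:18239057-18239356, minus strand: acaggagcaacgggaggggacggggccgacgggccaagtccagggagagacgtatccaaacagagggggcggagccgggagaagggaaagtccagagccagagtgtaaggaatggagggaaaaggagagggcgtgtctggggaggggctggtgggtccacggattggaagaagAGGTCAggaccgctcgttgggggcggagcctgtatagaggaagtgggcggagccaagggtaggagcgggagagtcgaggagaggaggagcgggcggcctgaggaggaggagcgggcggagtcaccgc
The E-box of the Bhlhe41 window begins at position -153, counted from the RefSeq start on which its window is set; for all 3 genes that start differs from the gene start given by the coordinates above. The capitals in the Nr1d1 window read AACGTG, which is CACGTT on the other strand, and begin at position -28. The match in the Nr1d2 window begins at position -77. The Rora window held none of these letters.

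The reads behind the values, recovered from the steps between the lowest FPKM values, came to 21.1 to 36.1 M per library. Across libraries this gave 241 to 2600 reads for Nr1d1, 1703 to 6726 for Nr1d2, 1026 to 3077 for Rora, 858 to 4616 for Bhlhe40 and 270 to 1652 for Bhlhe41. Libraries 1 (ZT0) and 3 (ZT12) of RE-RE sham muscle stood apart. Their GC tilt, the median log2 deviation of genes in the upper quartile of transcript GC content (above 54.5%) minus that of genes in the lower quartile (below 44.9%), was -1.20 and -1.17, against -0.23 to 0.61 in the other libraries. Library 2 of RE-RE 6-OHDA muscle (ZT0) had 17.8 FPKM summed over 8 macrophage markers, the lowest of all 23 libraries. The other 6-OHDA libraries of both genotypes had 81.0 to 507 FPKM, wild-type sham libraries 23.8 to 64.2 and RE-RE sham libraries 28.3 to 91.1. In RE-RE muscle the sum did not part the treatments, since 6-OHDA library 3, at 81.0 FPKM, lay within the sham range. The residual spread was larger in RE-RE than in wild-type groups for 91.7% of genes (median SD 0.45 against 0.22 log2 units). Among the 5 genes it was 0.87 against 0.28 for Nr1d1, 0.71 against 0.23 for Nr1d2, 0.61 against 0.31 for Rora, 0.55 against 0.19 for Bhlhe40 and 0.24 against 0.19 for Bhlhe41. The fit pools this spread, so its errors and p-values come out too small where RE-RE libraries are compared and too large between wild-type groups. Each difference below is a log2 difference in FPKM from limma's moderated test, fitted over all 8 groups, and a gene was called, or passed, when its p, adjusted by Benjamini-Hochberg over all genes tested, was under 0.05.

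In FPKM, which corrects for length, both REV-ERB genes and Bhlhe40 stood above Rora and Bhlhe41 in every wild-type group mean. Nr1d2 had its highest means at ZT12, at 45.2 ± 15.0 FPKM in RE-RE sham muscle (SD, n = 2) and 43.4 ± 4.16 in wild-type sham muscle (SD, n = 3). The lowest was 17.4 ± 4.22 FPKM in wild-type 6-OHDA muscle at ZT0 (SD, n = 4). Its groups were not ordered by time, with 21.4 ± 9.67 FPKM in RE-RE 6-OHDA muscle at ZT12 below 31.7 ± 2.86 in RE-RE sham muscle at ZT0 (SD, n = 2 each). Bhlhe41 ranked the 4 ZT12 groups above the 4 ZT0 groups, with ZT12 means of 8.26 ± 0.993 FPKM in wild-type sham (SD, n = 3), 7.04 ± 0.777 in wild-type 6-OHDA (SD, n = 4), 6.12 ± 0.433 in RE-RE sham and 5.63 ± 0.926 in RE-RE 6-OHDA muscle (SD, n = 2 each). Nr1d1 and Bhlhe40 were highest in wild-type sham muscle at ZT0, at 26.7 ± 2.09 and 33.5 ± 5.57 FPKM (SD, n = 4), and Rora in RE-RE sham muscle, at 9.88 ± 4.04 FPKM at ZT12 and 10.7 ± 2.83 at ZT0 (SD, n = 2 each). Neighbours in these orders mostly overlapped. The ranges of neighbouring groups parted only for Nr1d2, between wild-type sham and wild-type 6-OHDA muscle at ZT12, and for Bhlhe41, between wild-type 6-OHDA and RE-RE sham muscle at ZT12.

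**Figure D1:**
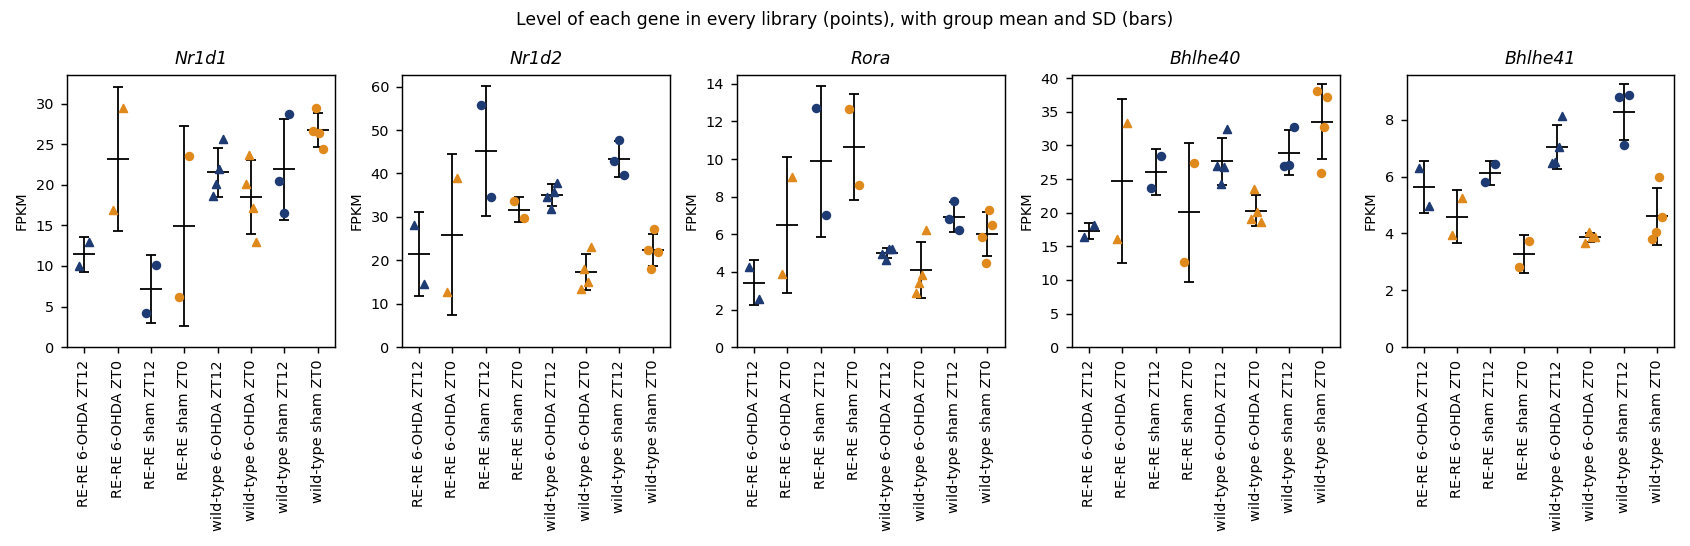
FPKM of each gene (y axis, linear from 0) in the 8 groups (x axis), with a point per library (circles sham, triangles 6-OHDA, blue ZT12, orange ZT0) and bars for the mean and SD. Bhlhe41 and, in wild-type muscle, Nr1d2 stand higher at ZT12 than at ZT0.

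The comparison of ZT12 with ZT0 asks which of these genes differ between the times in muscle with and without 6-OHDA. In wild-type muscle Bhlhe41 was the member that rose, with near equal estimates in injected and uninjected muscle, and Nr1d2 was higher at ZT12 in every library without passing. Nr1d1, Rora and Bhlhe40 did not pass in either treatment. Of the 5 genes 1 passed in wild-type sham muscle, where 0.647% of all genes tested passed and 0.265% rose, and 1 in wild-type 6-OHDA muscle, where 0.671% passed and 0.554% rose. The median difference of the 5 was 0.22 in sham and 0.44 in 6-OHDA muscle, beside -0.01 and 0.01 for all genes.

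For the REV-ERB genes, Nr1d2 had 42.8, 47.8 and 39.6 FPKM at ZT12 in wild-type sham muscle, against 22.4, 18.1, 27.2 and 21.8 FPKM at ZT0. All ZT12 libraries lay above all ZT0 libraries. In wild-type 6-OHDA muscle it had 34.5, 31.9, 35.7 and 37.9 FPKM at ZT12, against 13.4, 17.9, 15.0 and 23.01 FPKM at ZT0, again without overlap. The differences were 0.97 ± 0.30 (SE), 1.95-fold (adjusted p = 0.204), in sham and 1.04 ± 0.27, 2.06-fold (adjusted p = 0.1101), in 6-OHDA muscle. Fitted on the compared wild-type groups alone, whose spread is smaller, the same differences passed (adjusted p = 0.0288 and 0.0243), as they did with array weights (0.000973 and 0.000108). Nr1d1 had 20.5, 16.6 and 28.7 FPKM at ZT12 in wild-type sham muscle, against 26.6, 29.5, 26.4 and 24.5 FPKM at ZT0. In wild-type 6-OHDA muscle it had 18.6, 20.1, 21.9 and 25.6 FPKM at ZT12, against 20.1, 23.7, 17.1 and 13.0 FPKM at ZT0. The times overlapped in both, and the differences of -0.32 ± 0.36 and 0.25 ± 0.33 did not pass (adjusted p = 1 and 0.941). The exons of Nr1d1 share 263 bases, 8.55% of their length, with Thra, the thyroid hormone receptor gene on the opposite strand. The strand setting of the counting is not given in the sources used here, so reads from those bases cannot be told apart. Thra had 12.0 ± 1.88 FPKM at ZT12 (SD, n = 3) and 16.4 ± 1.24 at ZT0 (SD, n = 4) in wild-type sham muscle, a difference of -0.46 ± 0.15 that did not pass (adjusted p = 0.280).

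The ratio of the paralogs was higher in every ZT12 library than in any ZT0 library of wild-type sham muscle. Within a library, Nr1d2 over Nr1d1 was 2.09, 2.89 and 1.38 at ZT12 in wild-type sham muscle, against 0.843, 0.612, 1.03 and 0.893 at ZT0. It was 1.86, 1.59, 1.62 and 1.48 at ZT12 in wild-type 6-OHDA muscle, against 0.668, 0.756, 0.878 and 1.77 at ZT0. The times parted in sham muscle and overlapped in 6-OHDA muscle through library 4 at ZT0. In RE-RE 6-OHDA muscle the ratio was 2.84 and 1.12 at ZT12, against 0.758 and 1.32 at ZT0, and in RE-RE sham muscle 13.2 and 3.42 at ZT12, against 5.44 and 1.26 at ZT0, with overlap in both.

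For the activator, Rora had 6.79, 7.80 and 6.21 FPKM at ZT12 in wild-type sham muscle, against 5.84, 4.48, 7.27 and 6.52 FPKM at ZT0. In wild-type 6-OHDA muscle it had 4.93, 4.63, 5.22 and 5.23 FPKM at ZT12, against 2.88, 3.42, 3.85 and 6.25 FPKM at ZT0. Both pairs of ranges overlapped, and neither 0.22 ± 0.29 nor 0.35 ± 0.27 passed (adjusted p = 1 and 0.875).

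For the DEC genes, Bhlhe41 had 8.79, 7.12 and 8.88 FPKM at ZT12 in wild-type sham muscle, against 3.79, 4.03, 6.00 and 4.57 FPKM at ZT0. In wild-type 6-OHDA muscle it had 6.47, 6.51, 7.04 and 8.14 FPKM at ZT12, against 3.68, 4.05, 3.86 and 3.88 FPKM at ZT0. The times did not overlap in either treatment. Bhlhe41 rose 1.82-fold in sham (0.86 ± 0.16 SE, adjusted p = 0.0136) and 1.81-fold in 6-OHDA muscle (0.86 ± 0.15, adjusted p = 0.00872). The sham call was lost in a fit of the compared groups alone (adjusted p = 0.0803), and without library 1 or 2 at ZT0 (0.77 and 0.81, adjusted p = 0.0536 and 0.0523) or library 5 or 7 at ZT12 (0.81 and 0.80, adjusted p = 0.0946 and 0.1104). The call in 6-OHDA muscle held without any 1 of its 8 libraries (adjusted p = 0.0169 to 0.0453). Gm43909, on the opposite strand, covers 1280 bases, 19.1%, of the Bhlhe41 exons and was not analysed here, so reads of both cannot be told apart.

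Bhlhe40 had 26.9, 27.1 and 32.8 FPKM at ZT12 in wild-type sham muscle, against 38.2, 25.98, 32.7 and 37.2 FPKM at ZT0, which overlapped. In wild-type 6-OHDA muscle it had 26.9, 24.3, 26.8 and 32.5 FPKM at ZT12, against 19.0, 23.6, 20.1 and 18.6 FPKM at ZT0, which did not. Neither difference passed (-0.20 ± 0.24 in sham and 0.44 ± 0.22 in 6-OHDA muscle, adjusted p = 1 and 0.726), although with array weights Bhlhe40 did in 6-OHDA muscle (0.49, adjusted p = 0.0182). Bhlhe41 over Bhlhe40 was 0.287 ± 0.0347 at ZT12 (SD, n = 3) and 0.140 ± 0.0369 at ZT0 (SD, n = 4) in wild-type sham muscle, and 0.255 ± 0.0125 at ZT12 and 0.192 ± 0.0151 at ZT0 in wild-type 6-OHDA muscle (SD, n = 4 each), with no overlap of the times in either. In RE-RE 6-OHDA muscle it was 0.382 and 0.274 at ZT12, against 0.245 and 0.158 at ZT0, and in RE-RE sham muscle 0.246 and 0.226 at ZT12, against 0.221 and 0.137 at ZT0. The ratio was thus higher in every ZT12 library than in any ZT0 library of the same genotype and treatment. In all, the libraries of ZT12 lay above those of ZT0 without overlap for 2 of the 5 genes in wild-type sham muscle, where this held for 5.74% of all genes, and for 3 of 5 in wild-type 6-OHDA muscle, where it held for 4.02%.

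**Figure D2:**
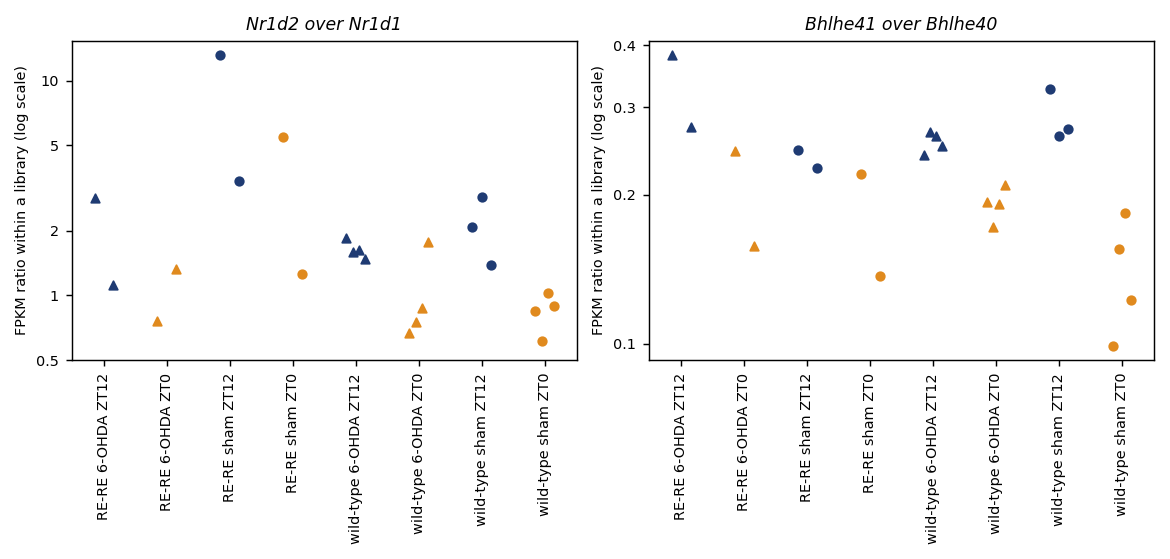
Ratio of FPKM within each library (y axis, log scale) for Nr1d2 over Nr1d1 and Bhlhe41 over Bhlhe40 in the 8 groups (x axis), with a point per library (circles sham, triangles 6-OHDA, blue ZT12, orange ZT0). In wild-type sham muscle both ratios are higher in every ZT12 library than in any ZT0 library, and the highest Nr1d2 over Nr1d1 ratio, 13.2, is in RE-RE sham library 3.

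In RE-RE muscle none of the 5 genes passed between the times, where 0.0546% of genes passed in sham and 0.109% in 6-OHDA muscle. In each treatment 1 of the 5 had an unadjusted p under 0.05 in limma (Bhlhe41 in sham, Rora in 6-OHDA muscle). So did 659 of all 12820 genes tested in RE-RE sham and 1700 in RE-RE 6-OHDA muscle. Of the 5 genes, limma-voom on recovered reads called 0. Bhlhe41 had 5.81 and 6.43 FPKM at ZT12 in RE-RE sham muscle, against 2.80 and 3.75 FPKM at ZT0, a difference of 0.91 ± 0.21 without overlap (adjusted p = 0.194). In RE-RE 6-OHDA muscle it had 6.28 and 4.97 FPKM at ZT12, against 3.94 and 5.24 FPKM at ZT0, which overlapped (0.30 ± 0.21, adjusted p = 0.541). Nr1d2 had 55.8 and 34.6 FPKM at ZT12 in RE-RE sham muscle, against 33.7 and 29.7 FPKM at ZT0 (0.47 ± 0.39, adjusted p = 1). In RE-RE 6-OHDA muscle it had 28.2 and 14.6 FPKM at ZT12, against 12.8 and 39.1 FPKM at ZT0 (-0.14 ± 0.39, adjusted p = 0.893). That sign turned without library 2 (0.66, adjusted p = 1). Nr1d1 had 4.24 and 10.1 FPKM at ZT12 in RE-RE sham muscle, against 6.20 and 23.6 FPKM at ZT0, and 9.94 and 13.0 FPKM at ZT12 in RE-RE 6-OHDA muscle, against 16.9 and 29.5 FPKM at ZT0. Its differences were -0.88 ± 0.47 and -0.97 ± 0.47 (adjusted p = 1 and 0.383). For Rora they were -0.15 and -0.84 (adjusted p = 1 and 0.358) and for Bhlhe40 0.48 and -0.42 (adjusted p = 1 and 0.554). Without library 1 of RE-RE 6-OHDA muscle the difference of Rora passed (-1.44, adjusted p = 0.0300). The times parted for 2 of the 5 genes in RE-RE sham muscle (Nr1d2 and Bhlhe41, higher at ZT12), where 7.37% of all genes did so in that direction, and for Nr1d1 in RE-RE 6-OHDA muscle (lower at ZT12), where 19.8% did.

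**Figure D3:**
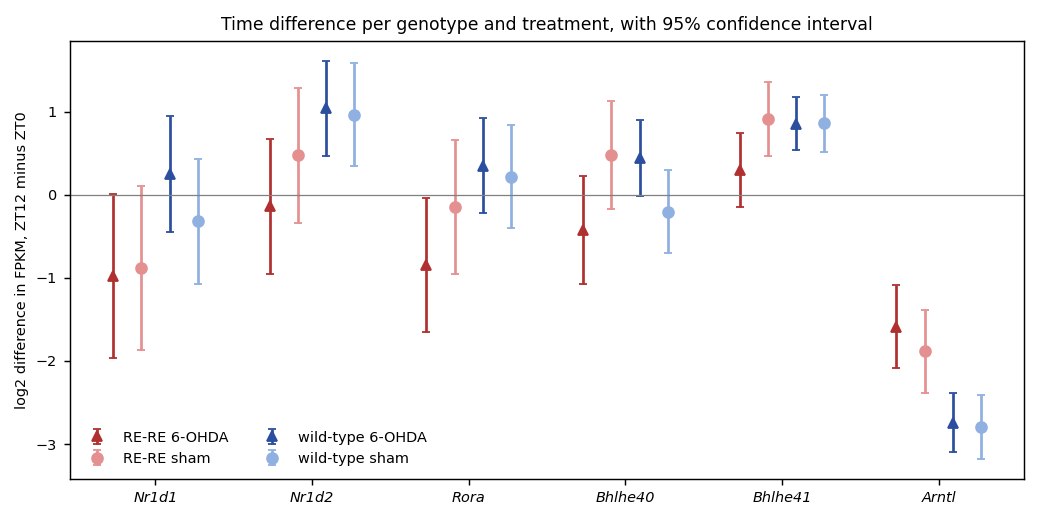
Log2 difference in FPKM, ZT12 minus ZT0 (y axis), for the 5 genes and Arntl (x axis) in each genotype and treatment, with the estimate as a marker and its 95% confidence interval from the pooled spread as a bar. Bhlhe41 and Nr1d2 lie above 0 in wild-type muscle with near equal values for both treatments, and Arntl lies between -1.59 and -2.80.

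Whether the time difference itself changed was tested directly, and none of the 5 genes passed in any of 3 such tests, where 0.0078%, 0.0156% and 0.0156% of all genes passed. None had an unadjusted p under 0.05 in limma, and limma-voom on recovered reads called 0. With 6-OHDA in wild-type mice the time difference of Bhlhe41 changed by -0.00 (95% confidence interval -0.47 to 0.46) and that of Nr1d2 by 0.07 (-0.77 to 0.92). That of Bhlhe40 changed by 0.64 (-0.03 to 1.32), of Nr1d1 by 0.57 (-0.46 to 1.596) and of Rora by 0.13 (-0.71 to 0.97), all with an adjusted p of 1. With 6-OHDA in RE-RE mice the changes were -0.90 for Bhlhe40, -0.69 for Rora, -0.62 for Bhlhe41, -0.61 for Nr1d2 and -0.09 for Nr1d1 (adjusted p = 0.962 to 0.984). In RE-RE against wild-type sham muscle they were 0.68 for Bhlhe40, 0.05 for Bhlhe41, -0.36 for Rora, -0.49 for Nr1d2 and -0.56 for Nr1d1 (adjusted p = 1 for each). The intervals of the last 2 sets reach over 1 log2 unit in at least 1 direction for each gene except Bhlhe41 in the genotype test (-0.51 to 0.62).

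Partners and targets of these factors were compared between the times in the same fit. Of 6 genes driven through ROREs, 4 fell at ZT12 in wild-type sham muscle, Arntl (-2.80 ± 0.18), Npas2 (-3.41 ± 0.39), Clock (-1.08 ± 0.19) and the repressor Nfil3 (-1.48 ± 0.28). The list's median was -1.28, beside -0.01 for all genes. Cry1 (-0.41) did not pass. In wild-type 6-OHDA muscle Arntl (-2.74 ± 0.17), Npas2 (-3.38 ± 0.37) and Clock (-0.80 ± 0.17) fell, with a median of -0.62 beside 0.01. Nfil3 lost its call without sham library 1, 5, 6 or 7 (-1.33 to -1.55), Clock without sham library 7 (-0.98) and, in 6-OHDA muscle, without any 1 library (-0.75 to -0.84). In RE-RE muscle only Arntl of these 6 passed, falling by 1.88 ± 0.24 in sham and by 1.59 ± 0.24 in 6-OHDA muscle, where the call was lost without library 2 or 3 (-1.65 and -1.22). At an unadjusted p under 0.05 in limma there were 4 of the 6 in RE-RE sham and 2 in RE-RE 6-OHDA muscle. Of all 12820 genes tested, 659 were under it in RE-RE sham and 1700 in RE-RE 6-OHDA muscle. The list's medians there were -0.82 and -0.41, beside -0.03 for all genes in each. Of 8 clock genes driven through E-boxes and D-boxes, the elements bound by BMAL1, by the DEC proteins and by DBP and its relatives, 7 rose in each wild-type treatment, among them Dbp (3.51 in sham and 3.29 in 6-OHDA muscle), Per2 (3.20 and 2.68) and Ciart (1.89 and 2.67). In RE-RE sham muscle 2 of the 8 passed as higher, Dbp (2.55) and Ciart (2.37), with 6 at an unadjusted p under 0.05 in limma. Both calls were lost without RE-RE sham library 1 or 3, where Dbp differed by 2.09 to 2.56 and Ciart by 2.23 to 2.45. In RE-RE 6-OHDA muscle 0 passed in limma (4 at an unadjusted p under 0.05). The list's medians were 1.38 in RE-RE sham and 1.17 in RE-RE 6-OHDA muscle, beside 2.06 and 2.53 in wild-type sham and 6-OHDA muscle. Between RE-RE and wild-type sham muscle, the time difference itself changed for 0 genes of either list in limma. There 2 RORE-driven genes and 1 E-box or D-box gene had an unadjusted p under 0.05, as did 368 of all 12820 genes. In limma no gene of the following lists passed between the times in any genotype or treatment. The lists held 6 genes of the REV-ERB corepressor complex and 5 of REV-ERB protein turnover. They also held 14 genes named as REV-ERB or ROR targets in muscle and 10 tested genes induced by low oxygen. At most 4 of a list had an unadjusted p under 0.05 in limma. Those were muscle targets in RE-RE 6-OHDA muscle, where 1700 of all 12820 genes were under it.

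The comparison of 6-OHDA with sham muscle, as the mean of both times, asks what the injections changed apart from the time of day. In wild-type muscle Rora fell, and the other 4 genes had lower values without passing. Of the 5 genes 1 passed, where 34.8% of all genes did and 15.9% fell. The median of the 5 was -0.35, beside -0.04 for all genes. Rora, at the FPKM values given above, fell 1.44-fold (-0.53 ± 0.20 SE, adjusted p = 0.0469). At ZT12 its 4 libraries from 6-OHDA muscle, at 4.63 to 5.23 FPKM, lay below the 3 from sham muscle, at 6.21 to 7.80 FPKM, whereas at ZT0 the treatments overlapped. The call was lost without any 1 of 13 of the 15 libraries (-0.46 to -0.57, adjusted p = 0.0605 to 0.105), the exceptions being sham library 2 and 6-OHDA library 4. Bhlhe40 had 18.6 to 23.6 FPKM at ZT0 in 6-OHDA muscle, below the 25.98 to 38.2 FPKM of sham muscle, while the treatments overlapped at ZT12. Over both times it differed by -0.39 ± 0.16 (adjusted p = 0.0676), and passed in a fit of the wild-type groups alone (adjusted p = 0.00392), with array weights (0.00273) and without sham library 2 (-0.45, 0.0419). Nr1d2 differed by -0.35 ± 0.20 (adjusted p = 0.189, or 0.0189 in the wild-type groups alone), Nr1d1 by -0.28 ± 0.25 (0.390) and Bhlhe41 by -0.23 ± 0.11 (0.116). The 6-OHDA libraries lay below the sham libraries without overlap for 2 of the 5 genes at ZT12 (Rora and Nr1d2) and for 2 at ZT0 (Nr1d1 and Bhlhe40), where this held for 20.6% and 16.1% of all genes.

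Markers of other cell types differed along with these values. In wild-type mice 8 of 8 macrophage markers, 6 of 6 fibroblast markers and 5 of 7 tested markers of regenerating muscle passed as higher after 6-OHDA, with medians of 2.37, 1.99 and 1.99. So did 3 of 3 tested adipocyte markers (median 2.55), 2 of 4 Schwann cell markers (0.91) and 1 of 6 endothelial markers (0.27), and of 9 mature myofibre markers 2 were higher and 4 lower. Macrophage markers summed to 141 to 507 FPKM in 6-OHDA and 23.8 to 64.2 FPKM in sham libraries, and myofibre markers to 42105 to 59166 FPKM in 6-OHDA and 62679 to 77290 FPKM in sham libraries. The part of these cells in the differences of Rora and the other genes was not tested, and in whole muscle fewer cells of a type and less RNA per cell cannot be told apart. Scaling each library by its own total of recovered reads shifted the median of all genes to 0.29 and the difference of Rora to -0.20 (adjusted p = 0.278), -0.49 relative to that median. Relative to that median Nr1d1 differed by -0.24 and Bhlhe41 by -0.19, while unadjusted for it they were at 0.06 and 0.11. This scaling shifts all genes of a library alike, so values relative to the median are no separate check.

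In RE-RE muscle Rora and Nr1d2 fell after 6-OHDA, so that 2 of the 5 genes passed, where 26.9% of all genes did and 15% fell. RE-RE 6-OHDA mice were 12 to 16 weeks old at ZT0 and 15 to 18 weeks at ZT12, and RE-RE sham mice 10 to 11 weeks. Age and treatment therefore cannot be told apart in any comparison of RE-RE 6-OHDA with RE-RE sham muscle, and age was not fitted there. Rora had 4.28 and 2.58 FPKM at ZT12 in RE-RE 6-OHDA muscle, against 12.7 and 7.02 FPKM in RE-RE sham muscle. At ZT0 it had 3.91 and 9.04 FPKM in RE-RE 6-OHDA muscle, against 12.7 and 8.65 FPKM in RE-RE sham muscle. The treatments parted at ZT12 and overlapped at ZT0 through 6-OHDA library 2. With 2 libraries in each group, the share of all genes that parted in this way was not counted, so the separation cannot be weighed. Over both times Rora fell 2.24-fold (-1.16 ± 0.27, adjusted p = 0.0150) and Nr1d2, at the FPKM values given above, 1.75-fold (-0.81 ± 0.27, adjusted p = 0.0385). Nr1d1 differed by 0.84 ± 0.33 (adjusted p = 0.0646), Bhlhe41 by 0.18 ± 0.15 and Bhlhe40 by -0.14 ± 0.22. Without RE-RE 6-OHDA library 2 Rora and Nr1d2 differed by -1.46 and -1.21 (adjusted p = 0.00119 and 0.00140). Without RE-RE sham libraries 1 and 3 they differed by -0.81 and -0.59 and did not pass (adjusted p = 0.156 and 0.289), and Nr1d1 differed by 0.04. With the GC content of transcripts adjusted in each library they differed by -0.68 and -0.41 (adjusted p = 0.0236 and 0.159). Both calls were lost without sham library 1 (-1.02 and -0.76), sham library 3 (-0.95 and -0.64), 6-OHDA library 1 (-0.86 and -0.41) or 6-OHDA library 4 (-0.98 and -0.57), while that of Nr1d1 was gained without sham library 2 (1.32, adjusted p = 0.00511) or 4 (1.15, adjusted p = 0.0125). In a fit of the RE-RE groups alone neither passed (adjusted p = 0.357 and 0.371), and with array weights 0 genes passed. On own totals, where the median of all genes was 0.37, the call of Nr1d2 was lost (-0.42, adjusted p = 0.0828) and Nr1d1 (1.23) and Bhlhe41 (0.57) passed (adjusted p = 0.0228 and 0.0159). Relative to that median they differed by -0.79, 0.86 and 0.20. An equal shift of all genes returns nearly the values on the deposited scale in any case, so this is no separate check. In RE-RE mice 5 of 7 regeneration markers passed as higher after 6-OHDA (median 3.50), as did 2 of 6 endothelial markers and 1 of 9 myofibre markers, and no macrophage marker of 8 did (median 0.83). Macrophage markers summed to 281, 17.8, 81.0 and 309 FPKM in RE-RE 6-OHDA libraries 1 to 4, against 70.0, 28.4, 91.1 and 28.3 FPKM in RE-RE sham libraries 1 to 4, and their part in the differences was not tested.

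Of the 6 RORE-driven genes 3 fell after 6-OHDA in wild-type mice, among them Cry1 (-0.36 ± 0.08) and Arntl (-0.50 ± 0.12). In RE-RE mice 2 fell, among them Clock (-0.68 ± 0.17). Of all genes 34.8% passed and 15.9% fell in wild-type mice, and 26.9% passed and 15% fell in RE-RE mice. Of 6 genes of the corepressor complex 2 fell and 1 rose in wild-type mice, beside the same shares of all genes. The deacetylase gene Hdac3 (-0.36 ± 0.11) and Gps2 (-0.60 ± 0.13) fell and Tbl1x (0.24 ± 0.07) rose. In RE-RE mice 1 of the 6 passed, Ncor1, the corepressor that binds REV-ERB, which fell (-0.36 ± 0.12). Of 14 genes named as REV-ERB or ROR targets in muscle, 5 fell and 1 rose in wild-type mice, beside 34.8% of all genes that passed and 15.9% that fell. Among them were Scd1, a fatty acid desaturase (1.69 ± 0.30), Ucp3, a mitochondrial carrier (-1.16 ± 0.26), and Mstn, the growth inhibitor myostatin (-1.44 ± 0.34). In RE-RE mice 3 fell, Mstn (-2.24 ± 0.46), the fatty acid transporter Cd36 (-0.66 ± 0.20) and the coactivator Ppargc1a (-0.68 ± 0.22), beside 26.9% of all genes that passed and 15% that fell. None of the RE-RE calls in this paragraph held without sham libraries 1 and 3, where Mstn differed by -1.89, Ncor1 by -0.47, Cd36 by -0.51, Ppargc1a by -0.34 and Clock by -0.32. With GC adjusted, Mstn passed (-1.73, adjusted p = 0.0163), and Cd36 (-0.14), Clock (-0.19), Ncor1 (-0.27) and Ppargc1a (-0.29) did not. Among 10 tested genes induced by low oxygen, a group to which Bhlhe40 belongs, 2 rose and 3 fell in wild-type mice, among them Vegfa (-0.97 ± 0.20) and Egln1 (-0.68 ± 0.15), beside the same 34.8% and 15.9% of all genes.

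The comparison of RE-RE with wild-type sham muscle asks how the genes stand where Bmal1 was restored in the Cre-expressing cells alone. Nr1d1 and Bhlhe41 were lower in RE-RE muscle, 2 of the 5 genes where 9.91% of all genes passed and 5.17% were lower, and the other 3 did not pass. Nr1d1 had 4.24 and 10.1 FPKM at ZT12 in RE-RE sham muscle, against 16.6 to 28.7 FPKM in wild-type sham muscle. At ZT0 it had 6.20 and 23.6 FPKM in RE-RE sham muscle, against 24.5 to 29.5 FPKM in wild-type sham muscle. All RE-RE libraries lay below all wild-type libraries of their time, at ZT0 narrowly, with 23.6 FPKM in RE-RE library 2 against 24.5 FPKM. The share of all genes for which this held was not counted, so the separation cannot be weighed. Nr1d1 was 2.68-fold lower over both times (-1.42 ± 0.30, adjusted p = 0.0123), and Thra, which overlaps it, differed by -0.23 ± 0.13 (adjusted p = 0.201). Bhlhe41 was 1.37-fold lower (-0.45 ± 0.13, adjusted p = 0.0422). Rora differed by 0.64 ± 0.24 (adjusted p = 0.0877), Bhlhe40 by -0.49 ± 0.20 (0.0997) and Nr1d2 by 0.27 ± 0.24 (0.453). Of 7 tested regeneration markers 3 were lower in RE-RE sham muscle, with a median of -1.42. The 3 tested adipocyte markers had a median of 2.35 and did not pass, and 1 of 4 Schwann cell markers passed as higher. Their part in these differences was not tested.

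The GC content of the transcripts and the GC tilt of the libraries moved with these values. Nr1d1, at 56.8% GC, lies above the upper quartile of all genes tested, and Nr1d2 and Rora, at 41.8% and 40.9%, below the lower, with Bhlhe40 (49.4%) and Bhlhe41 (47.5%) between. In RE-RE sham libraries 1 and 3, the ones with a tilt near -1.2, Nr1d1 had its 2 lowest values of all 23 libraries (6.20 and 4.24 FPKM) and Rora its 2 highest (12.7 FPKM in each). Without these libraries Nr1d1 differed by -0.63 (adjusted p = 0.251), Bhlhe41 by -0.31 (0.429) and Rora by 0.28 (0.728). With GC adjusted and all libraries kept, Nr1d1 differed by -1.07 (adjusted p = 0.00821), Bhlhe41 by -0.54 (0.0173) and Rora by 0.31 (0.209). Leaving out RE-RE sham library 1 or 3 alone ended the call of Nr1d1 (-0.94 and -1.11, adjusted p = 0.0899 and 0.101) and of Bhlhe41 (-0.35 and -0.42, adjusted p = 0.246 and 0.215). The call of Bhlhe41 was also lost without wild-type sham library 2, 3, 4, 5 or 7 (-0.39 to -0.48, adjusted p = 0.0515 to 0.102). Rora passed without RE-RE sham library 2 or 4 (0.77 and 0.85, adjusted p = 0.0403 and 0.0197), and Bhlhe40 without library 2 (-0.77, adjusted p = 0.00773). RE-RE sham mice were 10 to 11 weeks old and wild-type sham mice 12 to 18 weeks. With age as a covariate neither call held (Nr1d1 -1.74, adjusted p = 0.0594, and Bhlhe41 -0.48, adjusted p = 0.167). Both were also lost in a fit of the compared groups alone (adjusted p = 0.0921 and 0.142) and with array weights, where 0 genes passed. The call of Bhlhe41 was further lost with limma-voom on recovered reads (-0.45, adjusted p = 0.0516) and quantile normalization (-0.43, adjusted p = 0.0585).

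**Figure D4:**
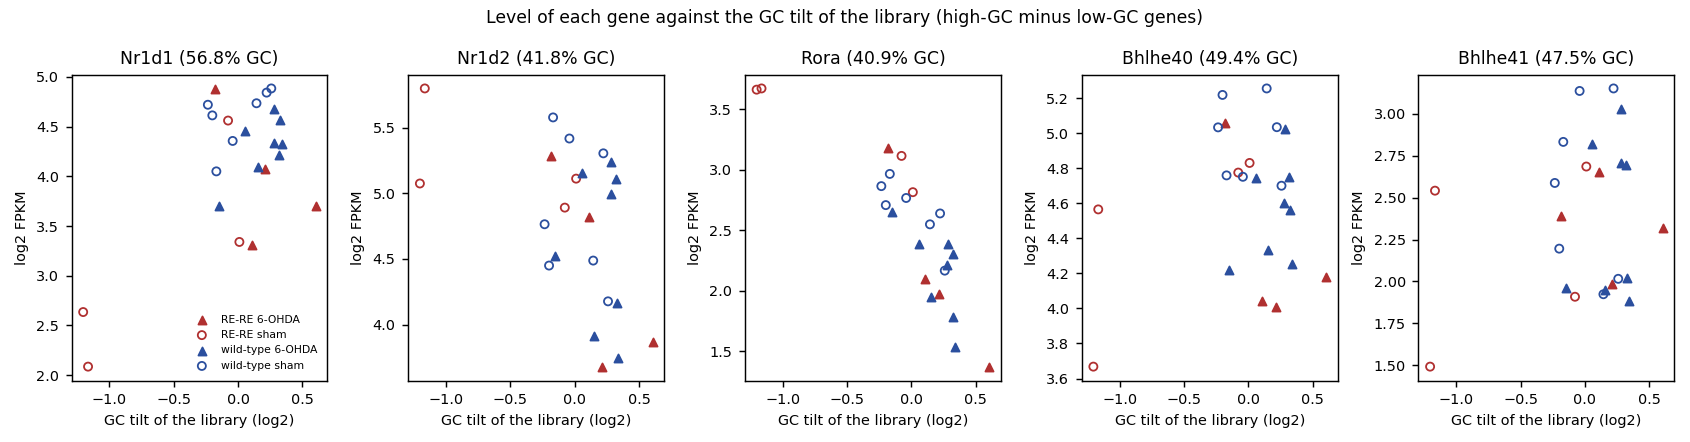
Log2 FPKM of each gene (y axis) against the GC tilt of the library in log2 units (x axis), with a point per library (red RE-RE, blue wild-type, filled triangles 6-OHDA, open circles sham). The 2 RE-RE sham libraries near a tilt of -1.2 hold the lowest values of Nr1d1 (56.8% GC) and the highest of Rora (40.9% GC).

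Between RE-RE and wild-type mice in 6-OHDA muscle, none of the 5 genes passed, where 0.226% of all genes did. The differences were -0.30 ± 0.29 for Nr1d1, -0.19 ± 0.24 for Nr1d2, 0.01 ± 0.24 for Rora, -0.24 ± 0.19 for Bhlhe40 and -0.05 ± 0.13 for Bhlhe41 (adjusted p = 0.772 to 0.999), and none had an unadjusted p under 0.05. Without RE-RE 6-OHDA library 2 they were -0.51, -0.60, -0.30, -0.50 and -0.15 in the same order. In this comparison Npas2, of the RORE-driven list, was higher in RE-RE muscle (2.32 ± 0.32), and Ucp3, of the muscle targets, likewise (1.77 ± 0.30). The call of Npas2 held without any 1 of the 12 libraries, and that of Ucp3 was lost without RE-RE 6-OHDA library 2 or 4 (1.61 to 1.63). In sham muscle 2 of the 6 RORE-driven genes were higher in RE-RE mice, Npas2 (4.29-fold) and Clock (0.65 ± 0.15), where 9.91% of all genes passed. Npas2 also passed without sham libraries 1 and 3 (2.45, adjusted p = 0.00379) and Clock did not (0.29, adjusted p = 0.400). Arntl itself differed by 0.28 ± 0.15 in sham and 0.49 ± 0.15 in 6-OHDA muscle (adjusted p = 0.197 and 0.247). Of the 14 muscle targets 4 passed between RE-RE and wild-type sham muscle, beside the same 9.91% of all genes. Scd1 (2.63 ± 0.37), Cd36 (0.71 ± 0.18) and Mstn (1.36 ± 0.41) were higher and Srebf1, a regulator of lipid synthesis (-0.71 ± 0.20), lower in RE-RE sham muscle. Without sham libraries 1 and 3 only Scd1 of these 4 passed (2.85, adjusted p = 0.00999).

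**Figure D5:**
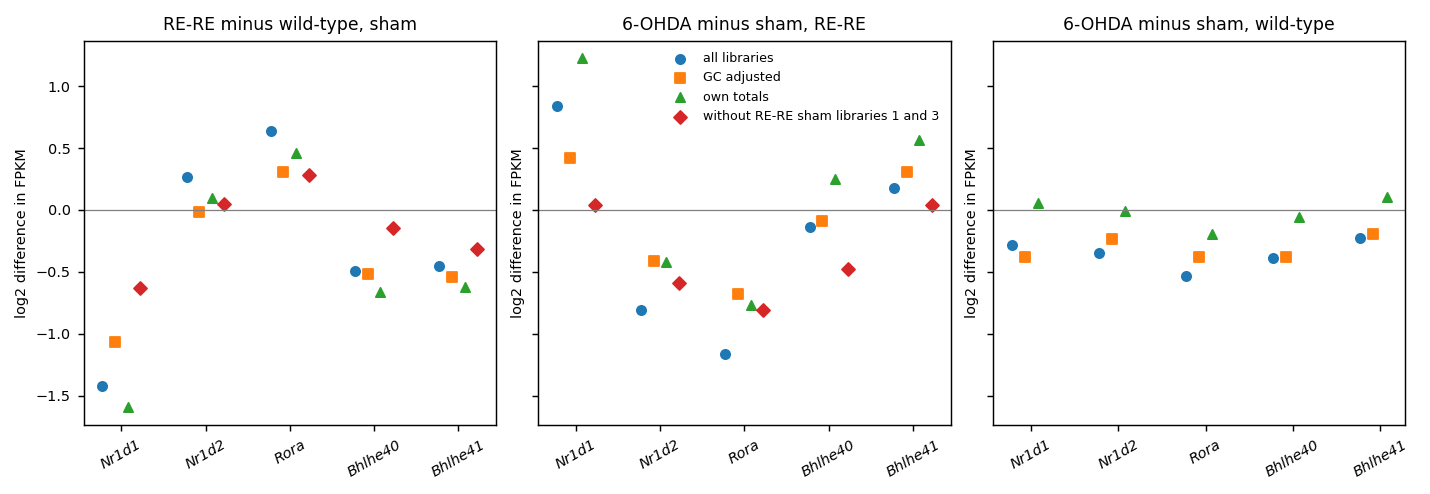
Log2 difference in FPKM (y axis) of the 5 genes (x axis) in 3 comparisons, with a marker for each way of processing: all libraries as deposited, GC adjusted, own totals of recovered reads, and, in the first 2, without RE-RE sham libraries 1 and 3. In the genotype comparison Nr1d1 lies below 0 under each, between -0.63 and -1.59, and for 6-OHDA in wild-type mice own totals move all 5 genes upward.

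The genes most like each member over the 23 libraries were found by the root mean square distance between centred log2 FPKM values. For Nr1d1, whose own SD over libraries was 0.73 log2 units, the nearest were Map7d1 (0.38), Ubr4 (0.39) and Cnnm3 (0.39). For Nr1d2 (own SD 0.61) they were Pfkfb1 (0.27), Tango2 (0.27) and Slc7a2 (0.30), and for Rora (own SD 0.60) Pcmtd1, Efcab2 and Zfyve9 (0.13 to 0.14). For Bhlhe40 (own SD 0.42) they were Sun2 (0.21), Mon1a (0.22) and Fzd7 (0.23), and for Bhlhe41 (own SD 0.46) Stard3, Rsad1 and Slc35e4 (0.25 for each). No clock gene of the lists above was among these 15 genes. The distance counts the size of changes as well as their direction, so a gene that changed far more than a member cannot be near it. Their absence therefore does not tell whether clock genes moved along with the members. Those nearest Nr1d1 had 54.5% to 62.5% GC and those nearest Rora 38.9% to 46.3%. The genes nearest Nr1d2 had 43.9% to 48.8%, those nearest Bhlhe40 53.9% to 58.4% and those nearest Bhlhe41 51.2% to 60.7%. These last 3 ranges lie above the GC of the members themselves (41.8%, 49.4% and 47.5%).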

How the data were processed

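RNA of 23 whole tibialis anterior libraries was sequenced in paired-end mode. The authors deposited log2 FPKM, which the values show to be log2(FPKM + 0.01), for 14500 genes. The submitters' processing notes name the aligner HISAT2 2.1.0 with GRCm38, the counter featureCounts 1.6.2, edgeR 3.30.0, and Trim Galore 0.5.0 and FastQC 0.11.8 for the reads. The strand setting, the annotation and the way libraries were scaled to each other are not given in the sources used here. The depth by which FPKM were scaled was not the total of recovered reads. It was 14.4 M against 21.1 M recovered reads in RE-RE sham library 1 at ZT0, and 34.5 M against 28.9 M in wild-type 6-OHDA library 1 at ZT0. Reads not counted by strand mix overlapping genes. On a scale of total reads, a share of reads taken by a few genes lowers the FPKM of the rest.

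Genes with at least 1 FPKM in at least 2 libraries were tested with limma 3.58.1 in R 4.3.3 on the log2 FPKM as deposited, with a mean for each of the 8 groups, a trended prior and Benjamini-Hochberg adjustment over the 12820 genes tested. The fit was tested on simulated data. FPKM per library, means and SD were computed by reversing the log. Reads were recovered from the steps of low values: 86.4% to 94.7% of values up to 20 reads were whole within 0.1 read. The labels do not say that libraries came from separate animals, so p-values measure the spread between these libraries. Gene positions, exon lengths and GC came from GENCODE M21, and promoters from RefSeq. Tables and figures were made with pandas 2.3.3, numpy 2.4.6 and matplotlib 3.10.9 in Python 3.11.15.

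The 5 genes and all lists were chosen with earlier results of these data known. Named were the 5 genes, Arntl, up to 4 passing genes of each list with the smallest p (any of the RORE-driven list), genes overlapping a member, and the 3 genes nearest each member. Single results of 2 listed genes are not reported here. Alternatives were a pseudocount of 1, other filters, quantile normalization, array weights, the compared groups alone, the replicate block, age, and each library left out. Own totals, limma-voom on recovered reads at the deposited scaling, GC adjustment in 20 bins, and leaving out RE-RE sham libraries 1 and 3 were chosen after seeing the data.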

Additional observations from a re-analysis of the deposited data

How the results depend on the processing

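Of the differences of named genes under other settings, 1905 kept direction and side of the threshold, 296 lost a call, 27 gained one and 65 changed sign, and of the counts of passing genes 115 stayed within 1.5 times the reported count and 99 did not. The cause was not tested where none is given. Depth limits the genes with few reads, and the RE-RE groups of 2 libraries limit every comparison that uses them.

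With array weights the number of passing genes was 706 for time in wild-type sham, 1603 for time in wild-type 6-OHDA, 7611 for 6-OHDA in wild-type, 11 for RE-RE against wild-type 6-OHDA muscle and 27 for the change of the time difference with 6-OHDA in wild-type mice. It was 0 for time in RE-RE sham (41 at an unadjusted p under 0.05 in limma), time in RE-RE 6-OHDA (657), 6-OHDA in RE-RE (2314), RE-RE against wild-type sham (1489) and the changes of the time difference with 6-OHDA in RE-RE mice (26) and with genotype (43). With the compared groups alone, which leave fewer samples, it was 134 for time in wild-type 6-OHDA, 23 for time in RE-RE sham, 0 for time in RE-RE 6-OHDA, 2 for 6-OHDA in RE-RE, 78 for RE-RE against wild-type sham, and 3 and 0 for the changes of the time difference with 6-OHDA in wild-type and RE-RE mice. Quantile normalization gave 132 for time in wild-type 6-OHDA, 38 for time in RE-RE 6-OHDA, 655 for RE-RE against wild-type sham and 1 for the change with 6-OHDA in RE-RE mice. A filter at a mean log2 FPKM of 1 gave 2 for time in RE-RE sham and 0 for each of the 3 changes of the time difference, limma-voom gave 2, 7 for time in RE-RE 6-OHDA and 0 for those 3, and log2(FPKM + 1) gave 0 for the change with 6-OHDA in RE-RE mice. Age as a covariate gave 67 for RE-RE against wild-type sham. Own totals gave 3 for time in RE-RE 6-OHDA and 47 for RE-RE against wild-type 6-OHDA. GC adjustment gave 162 for time in wild-type sham, 11 and 89 for time in RE-RE sham and 6-OHDA, 2239 for 6-OHDA in RE-RE, 49 for RE-RE against wild-type 6-OHDA and 5 for the change with genotype. Without RE-RE sham libraries 1 and 3 the number was 167 for 6-OHDA in RE-RE, 127 for RE-RE against wild-type sham and 4 for the change with genotype.

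With each library left out in turn, the number ranged from 25 to 59 for time in wild-type sham, 34 to 93 for time in wild-type 6-OHDA, 10 to 65 for time in RE-RE sham, 4 to 1813 for time in RE-RE 6-OHDA, 3332 to 4748 for 6-OHDA in wild-type, 28 to 6309 for 6-OHDA in RE-RE, 106 to 4816 for RE-RE against wild-type sham and 15 to 761 for RE-RE against wild-type 6-OHDA. For the changes of the time difference it ranged from 1 to 2 with 6-OHDA in wild-type mice, 1 to 41 with 6-OHDA in RE-RE mice and 1 to 28 with genotype.

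Signs turned for differences that had not passed, Ncor1 excepted. Quantile normalization gave 0.014 for Nr1d2 by time in RE-RE 6-OHDA, 0.029 for Bhlhe40 with 6-OHDA in RE-RE, -0.0018 for Rora between genotypes in 6-OHDA muscle, and 0.059 for Bhlhe41 and -0.16 for Arntl in the change of the time difference with 6-OHDA in wild-type mice. In the last, array weights gave 0.038 for Bhlhe41. Own totals shift all genes alike, moving their median to 0.29 and 0.37 for 6-OHDA in wild-type and RE-RE mice and 0.21 for time in RE-RE 6-OHDA. The median moved to -0.12 between genotypes in 6-OHDA muscle, and to -0.14 and 0.15 for the change with 6-OHDA in wild-type and RE-RE mice. The 5 genes kept their signs relative to these medians, which is no separate check, because the shift cancels once the medians are subtracted. Without subtracting them, own totals gave 0.093 for Nr1d2 by time in RE-RE 6-OHDA, 0.055 for Nr1d1 and 0.11 for Bhlhe41 with 6-OHDA in wild-type, 0.25 for Bhlhe40, 0.093 for Arntl and 0.031 for Ncor1 with 6-OHDA in RE-RE, -0.11 for Rora between genotypes in 6-OHDA muscle, -0.078 for Nr1d2, -0.023 for Rora and -0.10 for Arntl in the change with 6-OHDA in wild-type mice, and 0.12 for Nr1d1 in that in RE-RE mice. GC adjustment gave 0.059 for Nr1d2 by time in RE-RE 6-OHDA and -0.014 between genotypes in sham. Without RE-RE sham libraries 1 and 3, Nr1d1 had 0.25 in the change with 6-OHDA in RE-RE mice and Bhlhe41 -0.083 in that with genotype.

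Leaving out single libraries turned signs over these ranges. By time in RE-RE sham, Bhlhe40 ranged from -0.077 to 1.03, Nr1d1 from -1.85 to 0.079 and Rora from -0.57 to 0.28. By time in RE-RE 6-OHDA, Bhlhe40 ranged from -0.95 to 0.10 and Nr1d2 from -0.95 to 0.66. With 6-OHDA in RE-RE, Bhlhe40 ranged from -0.41 to 0.14. Between genotypes in 6-OHDA muscle, Bhlhe40 ranged from -0.50 to 0.024, Bhlhe41 from -0.15 to 0.056, Nr1d2 from -0.60 to 0.21 and Rora from -0.30 to 0.31. In the change with 6-OHDA in RE-RE mice, Arntl ranged from -0.077 to 0.67, Nr1d1 from -1.05 to 0.87 and Nr1d2 from -1.42 to 0.19. In that in wild-type mice, Arntl ranged from -0.030 to 0.14, Bhlhe41 from -0.14 to 0.082, Nr1d2 from -0.039 to 0.22 and Rora from -0.019 to 0.35. In that with genotype, Bhlhe41 ranged from -0.16 to 0.26, Nr1d1 from -1.53 to 0.40 and Rora from -0.79 to 0.065.

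Sham and 6-OHDA libraries share numbers in the labels, but over 7 wild-type pairs the correlations of their deviations were -0.123 to 0.0657 and over 4 RE-RE pairs 0.101 to 0.165, with 1 value for each RE-RE time since a group has 2 libraries. Ages were equal in 1 of the 11 pairs. Since not every pair was over 0.1, they were taken to share only a number. With the replicate block the call of Rora for 6-OHDA in wild-type mice was lost (-0.54, adjusted p = 0.0503), Bhlhe40 passed there (-0.43, 0.0151) and Nr1d1 passed for 6-OHDA in RE-RE mice (0.84, 0.0309), and 2 and 0 genes passed for the change of the time difference in wild-type and RE-RE mice. The replicate block pairs sham and 6-OHDA libraries of the same number. Between times and between genotypes no paired analysis was possible because of too few shared numbers.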
